A study of Mus musculus with 8 samples.

Results

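The genes described here are 10 markers of embryonic skeletal muscle: Myod1, Myog, Myh3, Myh8, Mylpf, Acta1, Tnnt1, Actc1, Tnnc1 and Ttn. They were chosen by name, with their mutant against control differences in these libraries known, and are 10 of the 23478 genes in each of the study's 2 count tables. Their values are therefore given as a description, with no test. RNA sequencing was done on mouse embryos at E13.5, by embryonic day. Whole tracheas came from 1 library of Wls flox/flox, ShhCre+ embryos, in which Shh-driven Cre deletes Wls in the airway epithelium, and from 2 control libraries of Wls flox/flox embryos without Cre. Sorted tracheal cells came from 2 libraries of Bmp4flox/flox, Foxg1Cre+, γSMAeGFP embryos and from 3 control libraries of Bmp4flox/flox, γSMAeGFP embryos. All sorted groups carry the floxed Bmp4 alleles and γSMAeGFP, in which GFP reports smooth muscle gamma-actin. Cells positive for EPCAM (epithelium) or GFP (muscle) were discarded, and the labels call the remaining cells chondroblasts. Neither marker of the sort is a skeletal muscle gene. Whether replicate libraries are of different embryos or litters is not in the labels, so p-values below cover the spread of these libraries alone, and that spread may be technical.

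Skeletal muscle forms from progenitors that switch on the myogenic transcription factors Myod1 and then Myog, leave the cell cycle and fuse into fibres. The fibres assemble sarcomeres, in which myosin pulls on actin, troponin makes the pull depend on calcium, and titin (Ttn) spans the sarcomere as a spring. Embryonic fibres use developmental forms, the embryonic and perinatal myosin heavy chains Myh3 and Myh8 and cardiac actin Actc1 beside skeletal actin Acta1. Actc1, Tnnc1 and Ttn are also major genes of heart muscle. In the trachea the muscle of the wall is smooth muscle, while skeletal muscle belongs to the larynx, the upper oesophagus and the muscles around the airway.

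Library totals ran from 24596836 to 31399982 counts in the tracheas, from 48876948 to 55492747 in the sorted controls, and were 12964287 and 15462780 in the Bmp4 mutants. Wls was at 65.3 CPM (counts scaled to the library total) in the Wls mutant and at 151 and 149 CPM in its controls. Bmp4 was at 25.5 and 36.7 CPM in the Bmp4 mutants and at 114, 92.0 and 117 CPM in their controls. The series text states that the trachea data were combined with data generated earlier, without saying which libraries these are. The sorted Bmp4 mutants held counts in genes that this tissue is not known to use. Olfactory and vomeronasal receptor genes (1431 with a coding length) collected 20.2 and 21.6 counts per kilobase of coding sequence there, against 0.284 to 0.402 in the controls. Beside that rate, 2015 other protein-coding genes with 0 counts in all 3 sorted controls collected 25.1 and 22.0 counts per kilobase of exon in the mutants. The coding measure for receptor genes was chosen after the data were seen because it lay close to these values, so the closeness is no check. Cartilage markers, which the sort was meant to enrich, had sums of 629 and 1728 CPM in the mutants, against 2659 to 5658 CPM in the controls.

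The promoters of 5 of the genes are shown because their transcripts stand on different sides of the trachea comparison: Myog, Myh3, Myh8 and Acta1 were higher in the Wls mutant than in both controls, and Actc1 was lower. Each run is the 250 bases before the RefSeq start of the gene on GRCm38.p6, which is the mm10 build, 5′ to 3′ on the gene's own strand. The windows are chr1:134289754-134290003 (plus strand) for Myog, chr11:67078050-67078299 (plus) for Myh3, chr11:67276874-67277123 (plus) for Myh8, chr8:123894776-123895025 (minus) for Acta1 and chr2:114052876-114053125 (minus) for Actc1. Capitals mark matches on either strand to the E-box CANNTG, the core that myogenic factors bind, to the MEF2 motif, and to the CArG box, the site of serum response factor.
Myog: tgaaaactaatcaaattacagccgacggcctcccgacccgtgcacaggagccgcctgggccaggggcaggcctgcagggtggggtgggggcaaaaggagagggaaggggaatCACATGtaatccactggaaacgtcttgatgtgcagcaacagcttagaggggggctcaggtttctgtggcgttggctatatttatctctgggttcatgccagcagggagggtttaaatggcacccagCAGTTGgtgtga
Myh3: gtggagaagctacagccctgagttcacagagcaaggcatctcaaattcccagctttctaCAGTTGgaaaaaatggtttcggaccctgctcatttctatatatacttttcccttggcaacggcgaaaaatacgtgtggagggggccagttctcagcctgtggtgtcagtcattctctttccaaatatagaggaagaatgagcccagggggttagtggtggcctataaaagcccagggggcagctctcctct
Myh8: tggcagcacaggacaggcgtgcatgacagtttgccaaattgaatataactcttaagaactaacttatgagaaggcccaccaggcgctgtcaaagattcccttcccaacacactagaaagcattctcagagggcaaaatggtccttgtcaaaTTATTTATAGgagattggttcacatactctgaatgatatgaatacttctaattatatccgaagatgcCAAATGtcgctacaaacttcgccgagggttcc
Acta1: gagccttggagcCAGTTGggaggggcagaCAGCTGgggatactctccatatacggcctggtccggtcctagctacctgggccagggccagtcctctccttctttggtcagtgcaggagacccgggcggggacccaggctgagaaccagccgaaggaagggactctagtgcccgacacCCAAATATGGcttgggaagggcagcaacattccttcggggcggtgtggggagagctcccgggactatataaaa
Actc1: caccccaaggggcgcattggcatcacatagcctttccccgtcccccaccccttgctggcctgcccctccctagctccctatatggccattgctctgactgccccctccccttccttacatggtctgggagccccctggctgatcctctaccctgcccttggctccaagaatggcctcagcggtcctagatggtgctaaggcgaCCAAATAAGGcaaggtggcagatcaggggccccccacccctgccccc
Of the 10 genes, 9 matched a RefSeq promoter entry, all but Myod1. The E-box CANNTG was in 8 of the 9 windows, against 66.2% of the 32851 promoters of the same length. The narrower E-box CAGCTG, a special case of the first, was in 2 (Acta1 and Mylpf), against 13.0%. A CArG box was in 2, both actins, against 1.5% of all promoters. The MEF2 motif was in 2 (Myh8 and Ttn), against 2.9%. The TATAAA sequence, not capitalised, was in 4 (Acta1, Myh3, Myh8 and Tnnt1), against 12.4%. Actc1 held no CANNTG in this window, while the Acta1 window held 2. Myh3 and Myh8 lie in the same myosin heavy chain cluster on chromosome 11 and share sequence: 16.7% of the 50-base windows of Myh8 exons and 4.76% of those of Myh3 also occur in other genes, all of them myosin heavy chains, so reads of the 2 may be split unevenly. For Acta1 the share was 2.02%, and for the other 7 genes it was 0. Ttn overlaps the exons of an antisense gene, Gm13938, over 453 bases, and no source used here gives the strand setting of the counting.

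In the whole tracheas, 7 of the 10 genes were higher in the Wls mutant than in both controls, 2 were lower than both and 1 lay between them. The 7 were both regulators, both developmental myosins, Mylpf, Acta1 and Tnnt1. The 2 lower genes were Actc1 and Ttn, and Tnnc1 lay between. Over all 15815 genes tested, 35.3% stood above both controls and 38.9% below both, and since the genes were chosen with this contrast known, nothing is read from their count. Their median log2 fold change was 0.90, against -0.01 over all genes tested. In a bulk library, fewer or more cells of a type and less or more RNA per cell cannot be told apart.

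Of the regulators, Myod1, which commits cells to the muscle lineage, was at 7.72 CPM in the Wls mutant and at 4.19 and 3.18 CPM in the controls. Its log2 fold change was 1.08 ± 0.32 (SE, 1 mutant and 2 controls, as for all trachea values). Myog, which drives terminal differentiation, was at 22.9 CPM in the mutant and at 13.3 and 11.7 CPM in the controls, a log2 fold change of 0.89 ± 0.21. For both regulators the mutant stood further from the controls than these did from each other.

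The developmental myosins had the largest differences of the 10. Myh3, the embryonic heavy chain, was at 91.6 CPM in the mutant and at 15.5 CPM in each control, a 5.99-fold difference (log2 2.58 ± 0.18). Myh8, the perinatal heavy chain, was at 16.1 CPM against 3.85 and 3.06 CPM, a 4.71-fold difference (log2 2.24 ± 0.27). Mylpf, the fast regulatory light chain that binds these heavy chains, was at 47.2 CPM against 22.5 and 16.4 CPM, with a log2 fold change of 1.29 ± 0.18. The fold differences of both heavy chains were larger than those of the regulators, a contrast that was not tested. Of the 10 genes, Myh3 and Mylpf met a rule of size used beside the test. That rule asks for a mean log2 CPM of at least 3, a difference of at least 1 in log2 CPM and a mutant outside the control range by more than the controls differed, and 8 of the 10 were abundant enough to be judged by it. It took 0.349% of the 10897 genes eligible as higher and 0.753% as lower. Since the 10 genes were chosen with this contrast known, nothing is read from how many of them met the rule.

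Among the thin filament genes, Acta1 was at 43.4 CPM in the mutant and at 27.1 and 19.3 CPM in the controls, a log2 fold change of 0.92 ± 0.18. Tnnt1, the slow skeletal troponin T, was at 67.8 CPM against 48.0 and 32.8 CPM (log2 0.76 ± 0.18). For Tnnt1 the mutant stood above the higher control by somewhat more than the controls differed in CPM, but not in log2 CPM. Actc1, the most abundant of the 10, went the other way, with 263 CPM in the mutant and 397 and 297 CPM in the controls (log2 -0.39 ± 0.20). Tnnc1, troponin C of slow and heart muscle, was at 44.7 CPM between controls of 59.6 and 40.5 CPM, and its log2 fold change was -0.15 ± 0.18. Ttn was at 31.6 CPM against 38.8 and 40.7 CPM (log2 -0.31 ± 0.19). The ratio of Acta1 to Actc1, skeletal to cardiac actin, was 0.165 in the mutant, against 0.0683 and 0.0651 in the controls.

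**Figure D1:**
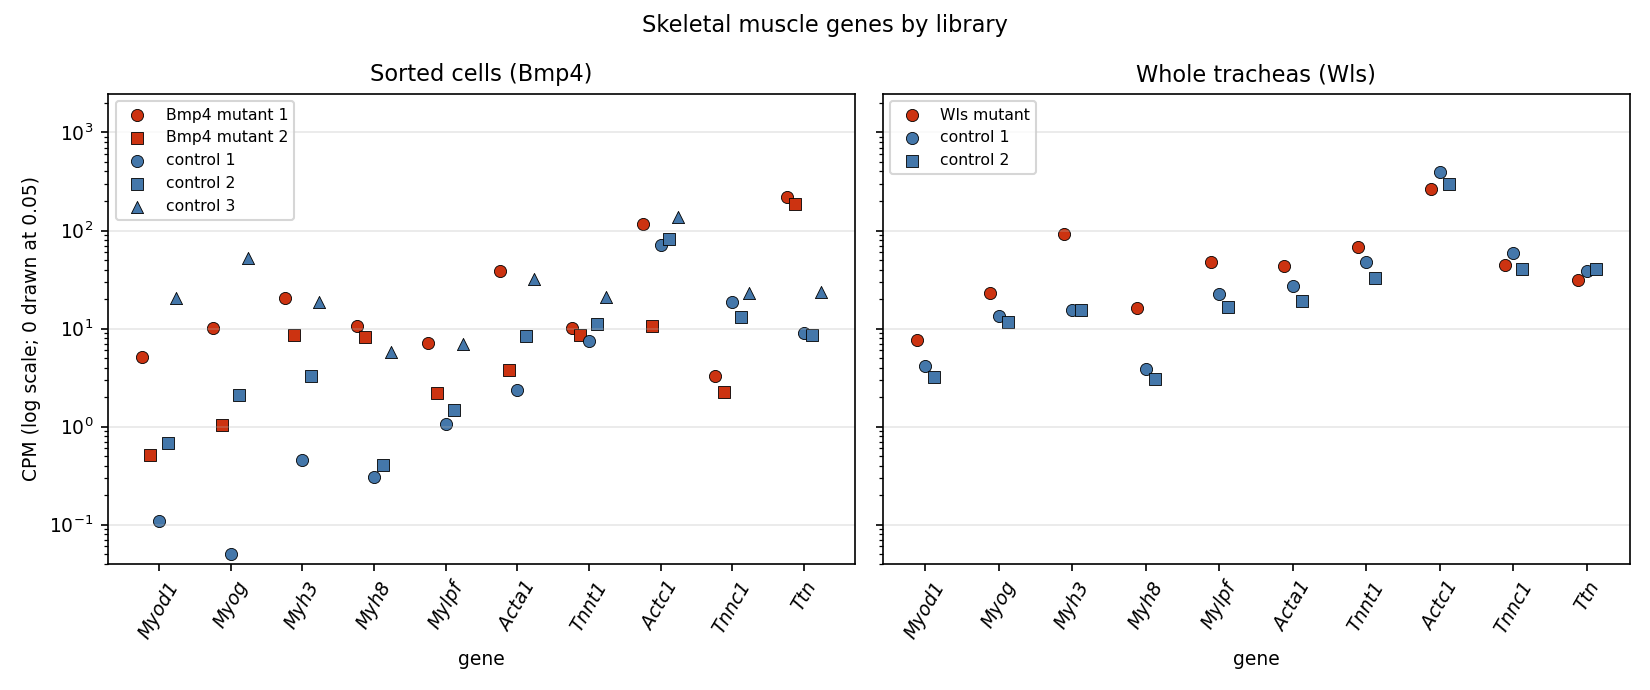
CPM (log scale, 0 drawn at 0.05) of the 10 genes in each library, with sorted cells on the left and whole tracheas on the right; red points are mutants, blue points are controls, and the shape gives the replicate number. In the tracheas the mutant lies above both controls from Myod1 to Tnnt1 and not for Actc1, Tnnc1 and Ttn, whereas among the sorted cells control 3 and mutant 1 are high for most genes.

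Heart muscle markers were lower in the same Wls mutant library. Of 13 such markers, 10 were below both controls (against 38.9% of all genes tested), Myl3 and Hcn4 were above both, and Myl2 lay between. Their sum was 257 CPM in the mutant and 591 and 455 CPM in the controls. Myh6, the atrial myosin heavy chain, was at 119 CPM against 274 and 202 CPM, and Myl7, the atrial light chain, at 57.8 CPM against 160 and 120 CPM. The 3 genes that heart muscle also uses, Actc1, Tnnc1 and Ttn, summed to 340 CPM in the mutant and to 496 and 378 CPM in the controls. The other 7 summed to 297 CPM against 134 and 102 CPM. This division into 7 and 3 genes was made after the values were seen, and the part of heart tissue in the values of Actc1, Tnnc1 and Ttn was not tested. Smooth muscle markers (11 genes) summed to 3182 CPM in the mutant and to 2316 and 2054 CPM in the controls, with 9 of 11 above both controls, against 35.3% of all genes tested. Epithelial markers summed to 1087 CPM against 786 and 674 CPM, tendon markers to 112 CPM against 65.1 CPM in each control, and cartilage markers to 701 CPM against 1918 and 1657 CPM. Their part in the skeletal muscle values was not tested.

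**Figure D2:**
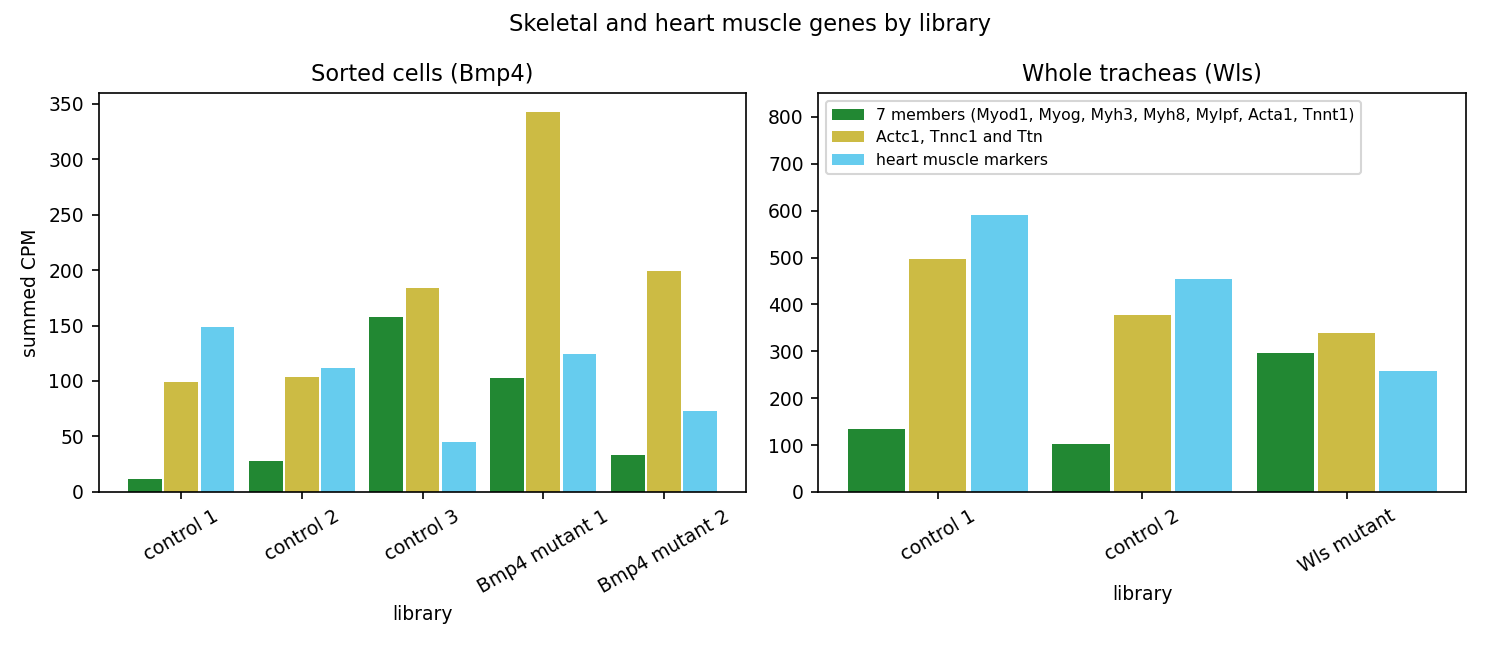
Summed CPM by library (bars from 0, separate scales) for the 7 genes Myod1, Myog, Myh3, Myh8, Mylpf, Acta1 and Tnnt1 (green), for Actc1, Tnnc1 and Ttn (yellow) and for 13 heart muscle markers (light blue). In the tracheas the green sum is highest in the Wls mutant (297 CPM) and the heart marker sum lowest (257 CPM). Among the sorted cells control 3 has the highest green sum (158 CPM) and, of the controls, the lowest heart marker sum (45.3 CPM). All bars include the counts of silent genes, which the receptor rate puts at 57.9 and 51.9 CPM of the heart marker bars of the mutants. Ttn makes up 222 and 186 CPM of the yellow bars of mutants 1 and 2. The receptor rate gives 2159 beside its 2879 counts in mutant 1 and 2308 beside its 2882 in mutant 2.

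The rest of the skeletal muscle programme was read from 114 other genes in 6 lists, of which 107 were abundant enough to be tested in the tracheas. By edgeR's quasi-likelihood test, 16 of the 107 (15.0%) rose and 10 (9.35%) fell in the Wls mutant at an adjusted p under 0.05. Over all genes tested, 1.88% rose and 2.39% fell. The median log2 fold change of the 107 was 0.22. With a single mutant library the fit has 1 residual degree of freedom and assumes that the mutant varies like the 2 controls. DESeq2 called 6 higher (Msc, Eya1, Chrng, Myh13, Neb and Casq2) and 6 lower (Eya4, Myl4, Myom1, Lmod2, Csrp3 and Casq1). These 12 were among the 26 that edgeR called, 13 of the 26 lost their call with DESeq2, and Cox8b got no adjusted p from it. Leaving the libraries unscaled beyond their totals gave 9 higher and 9 lower. By the rule of size, with no test, Eya1 was higher and Eya4 and Csrp3 lower among 35 eligible genes.

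Of 14 regulators and progenitor genes tested, Msc and Eya1 rose and Eya4 and Dmrt2 fell by edgeR, and DESeq2 did not call Dmrt2. Msc, a repressor of the myogenic factors that is active in branchial arch muscle, was at 9.59 CPM in the mutant and at 3.49 and 2.32 CPM in the controls (log2 fold change 1.74 ± 0.31, adjusted p = 1.4e-05 by edgeR). Eya1, a transcriptional cofactor with roles in several tissues, was at 41.7 CPM against 14.0 and 14.6 CPM (log2 1.56 ± 0.19). Its relative Eya4 was at 15.3 CPM against 31.3 and 44.7 CPM (log2 -1.29 ± 0.20). Mef2c and Tbx1, the other abundant genes of this list, had log2 fold changes of 0.26 and 0.44 with adjusted p of 0.57 and 0.20 (edgeR).

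Of 15 fusion, adhesion and nerve contact genes, Tmem8c, Cdh15 and Chrng rose by edgeR, of which DESeq2 called Chrng alone. Tmem8c, the fusion protein myomaker, was at 3.29 CPM in the mutant against 0.955 and 1.31 CPM. Chrng, the fetal subunit of the acetylcholine receptor, was at 3.46 CPM against 0.551 and 0.446 CPM (log2 fold change 2.81 ± 0.51, edgeR adjusted p = 1.7e-05). Cdh15, the cadherin of myoblasts, had a log2 fold change of 1.14 ± 0.33. The more abundant receptor subunits Chrna1 and Chrnb1 were at 8.82 and 12.8 CPM in the mutant, with log2 fold changes of 0.78 and 0.63 that did not pass. Dysf, a membrane repair protein, was at 19.3 CPM in the mutant, lower than the 21.9 and 25.9 CPM of the controls, and did not pass either. No gene of this list passed as lower by edgeR or DESeq2, nor was any lower at an unadjusted p under 0.05 by edgeR.

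Of the 36 sarcomere genes tested, edgeR called 6 higher and 6 lower and 24 did not pass. DESeq2 called 2 higher (Myh13 and Neb) and 4 lower (Myl4, Myom1, Lmod2 and Csrp3). Myh13, the heavy chain of extraocular and laryngeal muscle, was at 5.24 CPM in the mutant and at 0.698 and 0.764 CPM in the controls (log2 2.85 ± 0.44, edgeR adjusted p = 1.6e-07). It is among the heavy chains that share 50-base windows with Myh3 and Myh8, and the part of shared reads in its value was not tested. Neb, nebulin of the skeletal thin filament, was at 7.28 CPM against 1.47 and 2.01 CPM (log2 2.08 ± 0.36). Myl1, Tnnc2, Mybph and Lmod3, named here after their values were seen and called by edgeR but not DESeq2, had log2 fold changes of 0.87 to 1.42. Myl1 and Tnnc2 encode the fast light chain and the fast troponin C. The genes that fell included Myl4, the atrial and embryonic light chain, at 67.4 CPM against 138 and 107 CPM (log2 -0.85 ± 0.18). Myom1, an M-band protein of heart and skeletal muscle, was at 26.8 CPM against 51.3 and 50.6 CPM. Lmod2, a leiomodin of heart and skeletal thin filaments, was at 0.407 CPM against 2.64 and 2.83 CPM (log2 -2.72 ± 0.59). Csrp3, Xirp1 and Smpx, named after their values were seen and likewise found in heart muscle, had log2 fold changes of -1.04, -1.36 and -0.77, and DESeq2 did not call the latter pair. Tnnt2, cardiac troponin T and also an embryonic skeletal form, was at 74.2 CPM between controls of 103 and 65.3 CPM and did not pass.

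Of 12 genes for sarcomere assembly and turnover, Hspb7, a small heat shock protein of heart and skeletal muscle, fell by edgeR, to 13.6 CPM from 24.8 and 21.2 CPM (log2 -0.74 ± 0.21), and was not called by DESeq2. No gene of that list passed as higher by edgeR or DESeq2, and 1 was higher at an unadjusted p under 0.05 (edgeR). Smyd1 and Cryab, its other abundant genes, had log2 fold changes of -0.33 and -0.18 and did not pass. Of 19 excitation and calcium genes, Atp2a1, Casq2 and Cacna1s rose and Casq1 fell by edgeR, and DESeq2 called Casq2 and Casq1. Atp2a1, the calcium pump of fast fibres, was at 6.34 CPM against 2.06 and 2.36 CPM (log2 1.54 ± 0.36). Casq2, the calsequestrin of heart and slow or immature fibres, was at 12.5 CPM against 4.85 and 4.65 CPM (log2 1.41 ± 0.27). Casq1, the fast fibre form, named after its values were seen, was at 12.6 CPM against 24.7 and 25.1 CPM. Jph2, Srl and Tmem38a, the abundant genes of the list, had log2 fold changes of 0.22, 0.05 and 0.06 and did not pass. Of 11 energy supply genes, Cox8b, a muscle form of a cytochrome oxidase subunit, and Hfe2, hemojuvelin, rose by log2 2.55 ± 0.77 and 1.76 ± 0.41, from control levels under 2 CPM, by edgeR. DESeq2 did not call Hfe2. Eno3, Pygm and Fndc5, the abundant genes of that list, had log2 fold changes of -0.10, -0.42 and 0.16 and did not pass.

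**Figure D3:**
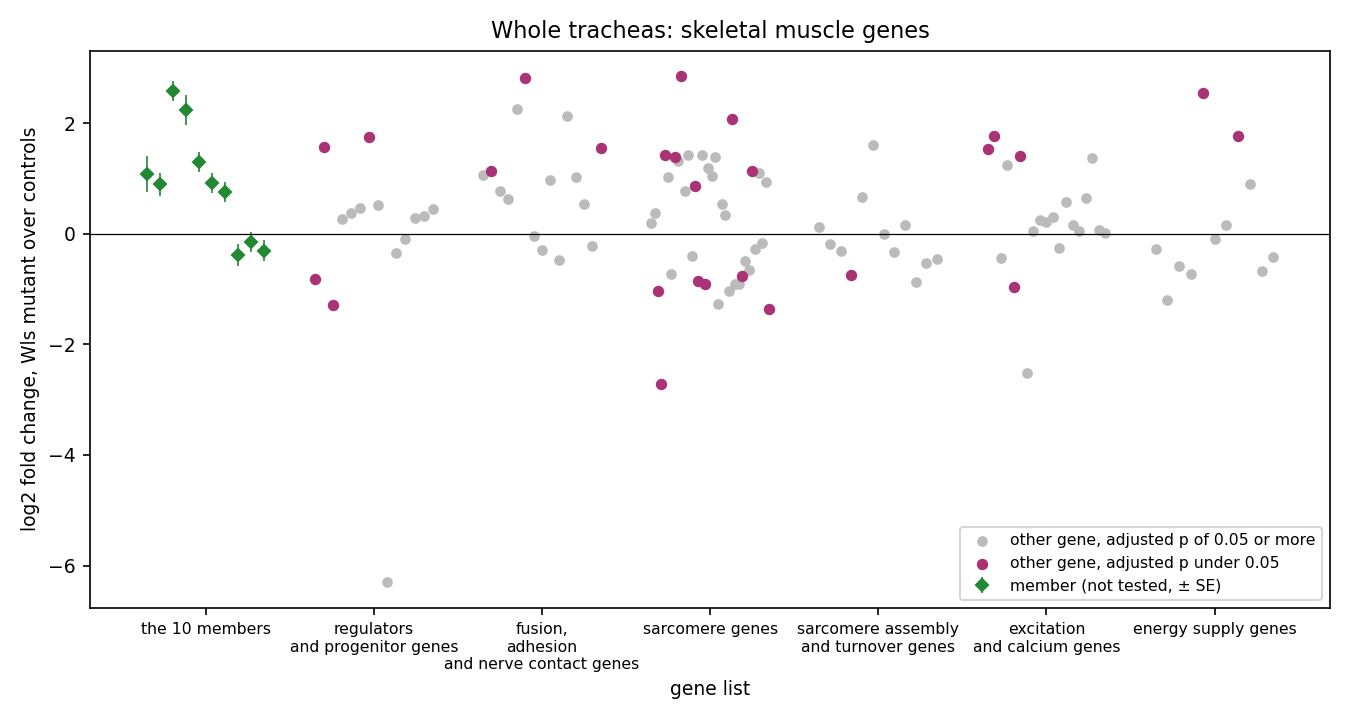
Log2 fold change of the Wls mutant over its controls for the 10 chosen genes (green diamonds, ± SE, not tested) and for the tested genes of 6 other skeletal muscle lists (purple, edgeR adjusted p under 0.05; grey, not passed). The 10 genes run in the order Myod1, Myog, Myh3, Myh8, Mylpf, Acta1, Tnnt1, Actc1, Tnnc1 and Ttn, and in the sarcomere list edgeR called 6 genes higher and 6 lower.

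In the sorted cells most of the 10 genes varied widely between libraries of the same group, and 7 of the 10 overlapped between the groups. Control 3 held the most Myog, with 53.0 CPM against 2.11 CPM in control 2 and 0 counts in control 1, a 0 that allows up to 0.0541 CPM (3 counts, counting error only). Bmp4 mutant 1 had 10.2 CPM and mutant 2 had 1.03 CPM. Myod1 was at 5.17 and 0.517 CPM in the mutants and at 0.108, 0.675 and 20.6 CPM in the controls. For both regulators, control 3 was the highest library, mutant 1 the second, and the other 3 stood well below. Msc, named after its values were seen, had the same high library, at 63.2 CPM in control 3 and at 0.36 and 1.55 CPM in the other controls.

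The contractile genes of the sorted cells showed the same 2 high libraries in part. Myh3 was at 20.7 and 8.67 CPM in the mutants and at 0.451, 3.25 and 18.7 CPM in the controls. Acta1 was at 38.9 and 3.75 CPM in the mutants and at 2.36, 8.39 and 32.1 CPM in the controls. Mylpf was at 7.10 and 2.20 CPM in the mutants and at 1.06, 1.49 and 6.88 CPM in the controls. In these 3 genes mutant 1 and control 3 were the highest, and the groups overlapped. Actc1 was at 117 and 10.5 CPM in the mutants and at 71.1, 82.4 and 137 CPM in the controls, so that mutant 2 was the lowest of all libraries. Tnnt1 was at 10.2 and 8.67 CPM in the mutants and at 7.44, 11.2 and 21.1 CPM in the controls, again with overlap.

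Of the 10 genes, 3 did not overlap between the sorted groups. Myh8 was at 10.7 and 8.28 CPM in the mutants and at 0.306, 0.409 and 5.81 CPM in the controls. Ttn was at 222 and 186 CPM in the mutants and at 8.92, 8.55 and 23.7 CPM in the controls. Tnnc1 was at 3.24 and 2.26 CPM in the mutants and at 18.7, 13.0 and 23.2 CPM in the controls, and was the one gene of the 10 with every mutant below every control. Among all 21665 genes tested, 53.3% had both mutants above every control and 15.8% had both below, and this contrast was also known when the genes were chosen. The log2 fold changes were 3.69 ± 0.44 for Ttn, 1.94 ± 1.17 for Myh8 and -2.95 ± 0.41 for Tnnc1 (SE, 2 mutants and 3 controls). Those of the other 7 genes ran from -1.86 ± 2.14 (Myog) to 0.81 ± 1.19 (Myh3). For most of these 7 the SE was larger than the value itself, and the SE are given as a description, not as a test. Without control 3, the Myog and Myod1 values were 2.21 and 2.65 in place of -1.86 and -1.48, and that of Myh8 was 4.48 in place of 1.94. The difference of mean log2 CPM also had the other sign for these 2 genes, 0.86 for Myog and 0.36 for Myod1. Over the 10 genes the median log2 fold change was -0.15, against 0.53 over all genes tested.

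The genes were then set beside the silent gene rate of the same sorted library, per kilobase. Ttn, whose transcript has 106824 bases of exon, collected 27.0 counts per kilobase of exon in each mutant, 1.33 and 1.25 times the receptor gene rate of the same libraries. Its 2879 and 2882 counts stand beside 2159 and 2308 that the receptor rate gives over that length. Myh8 collected 22.6 and 20.8 counts per kilobase, 1.12 and 0.963 times the rate. Both genes that were above every control were therefore near the rate of silent genes in the mutants: 27.7% and 29.7% of receptor genes stood at or above Ttn there, and 34.8% and 40.4% at or above Myh8. In mutant 2, Myh3 was at 1.04 times the rate, Myog at 0.495 times and Myod1 at 0.199 times.

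In mutant 1 several of the genes stood clear of that rate. Actc1 was at 50.8 times the receptor rate, Acta1 at 17.2 times, Tnnt1 at 6.17 times, Mylpf at 5.94 times and Myog at 4.37 times. The corresponding multiples in mutant 2 were 5.12 for Actc1, 1.86 for Acta1, 5.86 for Tnnt1 and 2.05 for Mylpf. Tnnc1 was at 2.88 and 2.25 times the rate in the mutants, so it was lower than in every control with the silent gene counts still included. When the receptor rate times the exon length was subtracted from every count, the log2 fold change became 1.97 for Ttn, -1.70 for Myh8 and -0.15 for Myh3. No source used here gives the authors' gene models, and counted over all annotated exons of the receptor genes, the rate would be 5.84 and 6.24 per kilobase. Against that lower rate Ttn would stand at 4.61 and 4.32 times and Myh8 at 3.87 and 3.33 times. Against the 2015 genes silent in the controls, measured over exons as the 10 genes are, Ttn stood at 1.08 and 1.23 times and Myh8 at 0.902 and 0.945 times.

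**Figure D4:**
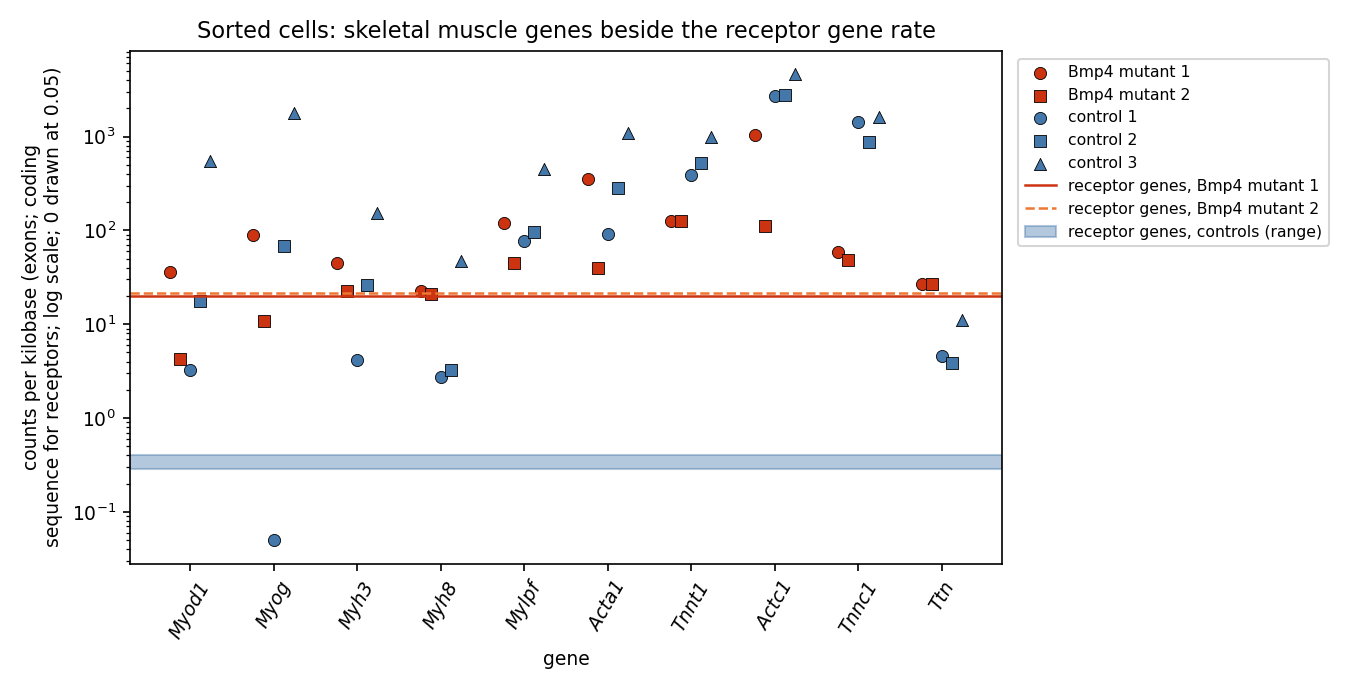
Counts per kilobase of exon (log scale, 0 drawn at 0.05) of the 10 genes in each sorted library, with the rate in receptor genes, per kilobase of coding sequence, as lines for the 2 Bmp4 mutants and as a band for the 3 controls. Ttn and Myh8 of both mutants lie close to the lines, and Actc1 lies above them, at 50.8 and 5.12 times the rate.

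Markers of other cells also differed among the sorted libraries. Smooth muscle markers summed to 1829 CPM in mutant 1, 470 CPM in mutant 2 and 252 to 304 CPM in the controls, with 8 of 11 above every control, against 53.3% of all genes tested. Acta2, smooth muscle actin, had 665 CPM in mutant 1 but 95.8 CPM in mutant 2, against 37.1 to 62.9 CPM in the controls. Heart muscle markers had sums of 124 and 73.3 CPM in the mutants, against 149, 112 and 45.3 CPM in controls 1, 2 and 3, so control 3, which held the most Myog, held the least of the heart markers among the controls. Of the mutants' sums, the receptor gene rate gives 57.9 and 51.9 CPM, which leaves 66.1 and 21.4 CPM. Myl7 was at 8.65 CPM in control 3, against 49.4 and 33.1 CPM in controls 1 and 2. In mutants 1 and 2 it was at 16.3 and 1.68 CPM. The part of these cells in the values of the 10 genes was not tested.

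Of the 114 other skeletal muscle genes, 113 were tested in the sorted cells. By edgeR 43 (38.1%) were higher and 5 (4.42%) lower in the Bmp4 mutants, against 39.3% higher and 15.6% lower over all genes tested. The share of higher genes was thus near that of all genes. The median log2 fold change of the 113 was 1.48, against 0.53 over all genes tested, with the silent gene counts still included. By list, 17 of 37 sarcomere genes were higher and 2 lower, 7 of 19 excitation and calcium genes higher and 1 lower, and 7 of 16 fusion, adhesion and nerve contact genes higher. Of 13 assembly and turnover genes 5 were higher and 1 lower, of 15 regulators 4 and 1, and 3 of 13 energy supply genes were higher. Many of the higher genes had no or few counts in the controls. Xirp2, a large actin-binding protein of striated muscle, was at 8.33 and 8.02 CPM in the mutants and at 0 counts in every control, and stood at 0.447 and 0.48 times the receptor rate in the mutants. Neb was at 85.1 and 65.6 CPM against 0.451 to 9.80 CPM (log2 4.20 ± 1.18, edgeR adjusted p = 0.020), at 2.43 and 2.09 times that rate. Cacna1s, the voltage sensor of the T-tubule, was at 26.1 and 10.5 CPM against 0 to 0.322 CPM, at 2.68 and 1.21 times.

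The abundant genes of these lists differed less. Mef2c was at 73.1 and 76.1 CPM in the mutants and at 60.9 to 67.5 CPM in the controls (log2 fold change -0.01 ± 0.13). Tnni1, slow troponin I, was at 36.4 and 14.2 CPM against 35.5 to 40.6 CPM and did not pass (log2 -0.80 ± 0.39). Srl, sarcalumenin of the calcium store, fell to 19.3 and 27.0 CPM from 34.7 to 41.5 CPM (log2 -0.93 ± 0.19, edgeR adjusted p = 0.0063). Tmem38a, Cacnb1 and Six4 had log2 fold changes of 0.04, -0.17 and -0.27 and did not pass. With the receptor rate subtracted, and among genes whose mean was at least 2 times that rate, 29 of the 114 could be tested. Of these, 1 was higher, against 3.63% of all 11335 genes so tested, and 0 were lower, against 1.41%. The higher gene was Met, the receptor that lets muscle progenitors migrate, named after its value was seen (log2 2.21 ± 0.40, edgeR adjusted p = 0.041). At an unadjusted p under 0.05, edgeR gave 4 higher and 3 lower. DESeq2 on the counts as deposited gave 51 higher and 4 lower. Without mutant 1, the counts as deposited gave 17 higher. They gave 2 lower without either mutant, without control 1 or without control 2. Met did not pass in the subtracted counts without mutant 1, or without any 1 of the 3 controls, and without mutant 2 there were 2 lower genes.

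Per kilobase of exon, levels can be compared between the genes. In the trachea controls Actc1 led with 202 to 270 CPM per kilobase, followed by Tnnc1 with 56.1 to 82.6, Tnnt1 with 31.0 to 45.3, Mylpf with 21.5 to 29.4 and Acta1 with 13.4 to 18.8 CPM per kilobase. Myog followed with 7.80 to 8.91, Myh3 with 2.58 in each, Myod1 with 1.71 to 2.25, Myh8 with 0.497 to 0.627 and Ttn with 0.363 to 0.381 CPM per kilobase. No neighbours in this order overlapped between the 2 controls. In the Wls mutant Tnnt1, Tnnc1 and Mylpf came level, at 64.0, 62.0 and 61.6 CPM per kilobase, as did Myog and Myh3, both at 15.3. The ends of the order, Actc1 and Ttn, were the same. In the sorted controls Actc1 again led, with 48.3 to 93.1 CPM per kilobase, and Tnnc1 followed with 18.0 to 32.1. The range of Tnnc1 overlapped those of Tnnt1, Myog and Acta1, and below them the ranges of Tnnt1, Myog, Acta1, Mylpf and Myod1 overlapped each other.

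Within a library, the balance of early and late genes differed too. The sum of Myod1 and Myog over the sum of Myh3 and Myh8 was 0.284 in the Wls mutant, against 0.907 and 0.801 in its controls. Among the sorted cells it was 3.0 in control 3, 0.76 in control 2 and 0.143 in control 1, and 0.488 and 0.0916 in the mutants. Control 3 was also the highest for Myog over Mylpf, with 7.70, against 0.485 to 0.709 in the tracheas. Control 3 thus held more regulator counts per heavy chain count than any other library. The tables were made with different kits, and these ratios are set beside each other without a test. In mutant 2 both regulators stood under the silent gene rate, so its ratios rest on counts that silent genes also collect. In mutant 1, Myh3, Myh8, Myod1 and Myog stood at 2.22, 1.12, 1.78 and 4.37 times the receptor gene rate. The ratio of 0.488 in mutant 1 therefore includes such counts too.

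Across the 8 libraries, the log2 CPM of each gene was set against the mean of the other 9. Pearson's r was 0.933 for Acta1, 0.923 for Mylpf, 0.918 for Myh3, 0.907 for Myod1 and 0.904 for Myog. It was 0.809 for Tnnt1, 0.716 for Myh8, 0.600 for Actc1, 0.327 for Tnnc1 and 0.232 for Ttn. The 3 genes that heart muscle also uses were thus the least like the rest. The r of Ttn includes the 2 Bmp4 mutants, where Ttn stood at 1.33 and 1.25 times the receptor gene rate. Myh8 stood at 1.12 and 0.963 times that rate there. The part of silent gene counts in these r values was not tested. Of 14125 other genes with a mean of at least 1 CPM in the tracheas, the most like the mean of the 10 was Actn2, the actinin of the sarcomere's Z-disc, with r = 0.975. It ran from 2.87 CPM in sorted control 1 to 28.1 CPM in the Wls mutant. Pag1 and Hebp1 followed at 0.968 each, then Irx2 (0.954), Cmtm8 and Snrnp48 (0.946 each), Synpo2 (0.943), Pip4k2a (0.937), Mrpl23 (0.936) and Tpm1 (0.928). Of the 10 genes, Actn2 was the one in a skeletal muscle list. These values describe 8 libraries that share 2 kits and 2 kinds of sample, and the tracheas held more of most of the 10 genes than most of the sorted cells.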

How the data were processed

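The authors deposited raw whole-number counts per gene symbol, in 1 table of sorted cells and 1 of tracheas. Per the submitters' processing notes, Bowtie2, Cufflinks, DESeq and mm10 were used, with Trim Galore for the sorted cells. Counting program, strand setting and annotation: not given in the sources used here. Per the labels' protocols, a SMART-Seq v4 kit amplified the sorted cells and an Ovation kit the tracheas, so no library was tested across tables.

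The test was the quasi-likelihood F test of edgeR 4.0.16 in R 4.3.3, on counts with TMM scaling and the default expression filter by group. P-values were adjusted by Benjamini-Hochberg over every gene in the fit, with a threshold of 0.05. All adjusted p come from it unless DESeq2 1.42.0 is named. Residual degrees of freedom were 3 (sorted cells) and 1 (tracheas). CPM values carry no TMM factor, and log2 CPM has a prior count of 2. All 10 genes passed the filter in both tables. No 2 replicates agreed within counting noise. The fits were tested on simulated counts.

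Exon lengths are of the GENCODE M21 (mm10) transcript with the longest coding sequence. Receptor genes were measured over their coding sequence, a choice made after the data were seen, because that rate lies close to the one of other silent genes over their exons. The rate over all annotated receptor exons is printed beside it. The 10 genes and the lists were chosen with earlier results of these data known. Beside these genes, the text names in each list and comparison the 3 genes of highest mean CPM and, of those that passed, the 3 of largest log2 fold change, plus the 10 genes most like the mean profile over the 8 libraries. A gene that this rule names in the sorted cells is not reported here. Marker lists are described by sums and counts: heart muscle, smooth muscle, tendon, cartilage and airway epithelium in the report, neurons with neural crest and thyroid with thymus and parathyroid in the closing section. Alternatives covered scaling, the filter, DESeq2, the prior count, background subtraction, the replicate block and leaving out each library.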

Additional observations from a re-analysis of the deposited data

How the results depend on the processing

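The trachea log2 fold changes of the 10 genes kept their direction under every alternative run (other scalings, filters, prior counts, DESeq2, either control left out), except Tnnc1, which was 0.14 without control 1. In the sorted cells 13 of 146 values by gene and alternative changed sign, all of them log2 fold changes. The 146 also include differences of mean log2 CPM at other prior counts. These were set against the difference at a prior count of 2, not against the log2 fold change, and kept their sign. Without mutant 1, Myh3 was -0.08, Acta1 -2.22 and Mylpf -0.81. Without mutant 2, Actc1 was 0.11. Without control 1, Acta1 was -0.08 and Mylpf -0.02, and without control 2 Mylpf was -0.06. Without control 3, Myod1 was 2.65 and Myog 2.21. With the background subtracted, Myh3 was -0.15 and Myh8 -1.70. Leaving out 1 library gave a range from -0.08 to 2.77 for Myh3, -4.07 to 2.65 for Myod1, -4.43 to 2.21 for Myog, -2.22 to 1.79 for Acta1, -3.50 to 0.11 for Actc1 and -0.81 to 1.64 for Mylpf. The cause was not tested. Over all genes of the sorted cells the median, 0.53 with TMM, was 0.75 with no scaling and 0.84 with scaling from genes above the background, so values of single genes move by as much.

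Of the other skeletal muscle genes in the sorted cells, the 43 called higher became 13 of 102 with the background subtracted. The 5 called lower became 3 with RLE scaling, 1 with no scaling beyond the library total and 1 with scaling from genes above the background. Leaving out 1 library gave 17 to 58 higher and 2 to 5 lower, and among the 29 genes tested after subtraction 0 to 1 higher and 0 to 2 lower. In the tracheas the 16 higher and 10 lower became 6 and 6 by DESeq2, 1 and 2 by the rule of size, and 9 higher with no scaling. With 1 control left out there was no test, and 22 to 31 genes (31 without control 1) were at least 1 higher and 7 to 11 at least 1 lower in log2 CPM. The scaling from genes above the background, the subtraction over those genes and the unscaled fits were shaped or added after seeing the data.

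With the replicate number as a replicate block, 1 gene was called higher and 0 lower in the sorted cells by edgeR, and Myod1 and Myog became 2.31 and 2.76. Control 3 has no partner there, and the tracheas have 1 mutant, so no paired fit was made for them. Same-numbered libraries did not deviate together (r = -0.325 and -0.237 over 11335 genes), so the numbers are not taken to pair the samples. The deviations of 2 mutants from their mean mirror each other, so these 2 values are not independent checks. Myod1 and Myog rest on 8 and 16 counts in mutant 2, and on 67 and 132 in mutant 1.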

Other observations

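Further marker lists were measured that belong to no comparison above. Neuron and neural crest markers (9 genes) summed to 279 CPM in the Wls mutant and to 249 and 252 CPM in its controls, and in the sorted cells to 633 and 782 CPM in the mutants, against 307 to 502 CPM in the controls. Thyroid, thymus and parathyroid markers (8 genes) summed to 18.5 CPM in the Wls mutant and to 8.77 and 10.1 CPM in its controls, with 4 of 8 above both controls, against 35.3% of all genes tested. In the sorted mutants the latter had sums of 86.4 and 53.9 CPM, beside 42.8 and 38.3 CPM that the receptor gene rate gives over their length, against 6.07, 12.4 and 21.1 CPM in controls 1, 2 and 3. Control 3, which held the most Myog, was thus also the highest control for this list.

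Irx2, an Iroquois homeobox gene outside the muscle lists, had a profile close to that of the myogenic genes. It was at 18.2 CPM in sorted control 3 against 0.144 and 0.552 CPM in the other controls, and at 32.8 CPM in the Wls mutant against 14.3 and 16.0 CPM in its controls. In the Bmp4 mutants it was at 2.16 and 1.29 CPM.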
